A study of Homo sapiens with 8 samples.

Results

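The genes described here are 124 developmental transcription factor genes of 18 families, out of 14884 genes that the platform annotation named on the array. They were chosen by symbol alone: the PAX, SOX, LHX, GATA, TBX, HAND, NKX, FOX (A to L), DLX, EN, EMX, OTX, MSX, IRX, OLIG and NEUROD families, SIX2 to SIX6, and WT1. Where a symbol had several transcript clusters, the probe groups that each read 1 stretch of transcript, the cluster of highest mean signal was taken. The 124 genes had 130 clusters of 53617 on the array, and 6 genes (FOXD1, LHX2, NKX2-1, NKX2-2, SIX5 and SOX12) had more than 1. No histone mark was measured in these arrays, so whether any of these promoters was bivalent in these cells was not tested.

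All 8 arrays came from HEK293T, a line derived from human embryonic kidney cells that expresses SV40 large T antigen. Lentiviral shRNA clones made up 3 arrays: shControl, 1 clone with a control shRNA, and shTET1#1 and shTET1#2, 1 clone each with TET1 shRNA#1 and TET1 shRNA#2. Plasmid-transfected cells, sorted by fluorescence 3 days after transfection, made up the other 5. They received an empty vector (vector), wild-type TET1 (TET1-CD or TET1-FL) or its catalytic mutant (mTET1-CD or mTET1-FL), with CD and FL naming the construct. Every group other than TET1 shRNA had 1 array, nothing in the labels names separate cultures, and p-values below measure only the spread that the fit leaves over.

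Developmental transcription factor genes of these families set the identity of embryonic tissues. In pluripotent and progenitor cells many carry H3K4me3, a mark laid down by COMPASS-type methyltransferases, together with H3K27me3, laid down by Polycomb repressive complexes, and such genes are called bivalent. Their promoters are typically rich in unmethylated CpG dinucleotides, and TET1, which oxidises 5-methylcytosine, binds many such promoters. PAX2, a paired-box factor of the early kidney, is the gene that served as marker of the set.

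The promoters of 4 genes are shown first: that of PAX2 and those of SIX2, TBX19 and SOX30, the genes for which a comparison below passed its threshold. Each is 250 bases before to 50 bases after the start site on the coding strand (RefSeq, GRCh38.p14), with the CpG dinucleotides in capitals. The PAX2 window lies on the plus strand at chr10:100735146-100735445, the SIX2 window on the minus strand at chr2:45009403-45009702, the TBX19 window on the plus strand at chr1:168280627-168280926, and the SOX30 window on the minus strand at chr5:157671431-157671730.
PAX2: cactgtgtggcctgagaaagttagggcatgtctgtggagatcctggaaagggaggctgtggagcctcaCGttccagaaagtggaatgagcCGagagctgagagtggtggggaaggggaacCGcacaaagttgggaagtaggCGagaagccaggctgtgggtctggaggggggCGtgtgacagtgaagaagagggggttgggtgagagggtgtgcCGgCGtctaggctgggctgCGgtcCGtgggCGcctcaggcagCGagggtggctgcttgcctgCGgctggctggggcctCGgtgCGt
SIX2: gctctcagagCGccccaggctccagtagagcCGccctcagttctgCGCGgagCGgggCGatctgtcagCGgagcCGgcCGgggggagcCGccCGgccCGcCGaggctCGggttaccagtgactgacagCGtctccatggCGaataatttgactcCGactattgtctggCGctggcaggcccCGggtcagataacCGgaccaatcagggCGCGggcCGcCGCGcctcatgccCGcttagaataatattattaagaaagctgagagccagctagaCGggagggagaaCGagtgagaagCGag
TBX19: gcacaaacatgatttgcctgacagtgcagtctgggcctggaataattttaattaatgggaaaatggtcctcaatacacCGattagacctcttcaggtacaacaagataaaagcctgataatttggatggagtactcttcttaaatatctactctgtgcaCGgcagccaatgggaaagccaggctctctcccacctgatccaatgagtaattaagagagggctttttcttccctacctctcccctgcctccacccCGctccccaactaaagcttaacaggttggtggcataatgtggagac
SOX30: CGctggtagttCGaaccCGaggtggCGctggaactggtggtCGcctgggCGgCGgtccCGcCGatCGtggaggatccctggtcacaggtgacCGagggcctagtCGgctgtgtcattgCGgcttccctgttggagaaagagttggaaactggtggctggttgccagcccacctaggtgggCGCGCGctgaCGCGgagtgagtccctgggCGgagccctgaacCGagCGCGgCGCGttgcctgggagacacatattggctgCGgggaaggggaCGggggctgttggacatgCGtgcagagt
The PAX2 window held 14 CpG, that of SIX2 29, that of TBX19 3 and that of SOX30 27. TBX19 thus had few CpG and SIX2 and SOX30 many. SOX30 entered its test below only through arrays where it was high. TBX19 and SIX2 were picked by their test results, and whether CpG count goes with the direction of a difference was not tested.

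RefSeq promoters were found for 85 of the 124 genes by gene number. Their median CpG count was 23 per 300 bases, the same as the 23 of the 10664 other named genes. A window with GC above 50% and an observed-to-expected CpG ratio above 0.6, the usual description of a CpG island, was found for 77.6% of the 85 genes and for 65.7% of the others. The motif TATAAA, searched on both strands, was present in 4.71% of the windows and in 8.52% of those of the other named genes. CCAAT, also searched on both strands, was present in 44.7% and 35.9%. At the CpG-rich end stood FOXK1 and FOXK2, with 55 CpG each, and SOX12 with 54. At the other end stood TBX22 and TBX19 with 3 and NEUROD6 with 4. These are descriptions of sequence, and DNA methylation was not part of these files.

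Signals are log2 values normalised by the authors, and each array has a median over all clusters, between 5.47 and 5.55, that serves here as the line between detected and background genes. Of the 124 genes, 96 (77.4%) lay above the median of every array, 15 lay above on some arrays and 13 (10.5%) on none. Over all named genes, 63.3% lay above on every array and 24.9% on none. The lack of a signal above the median means only that the probes did not stand out from the array, since probes differ in affinity and a level cannot be set against that of another gene. Each array had between 101 (shTET1#1) and 107 (TET1-FL) of the 124 genes above its median, so the line fell at a similar place in all 8.

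Promoter CpG content differed between these classes. Island-like windows made up 84.8% of the 66 detected genes with a promoter, 60% of the 10 mixed genes and 44.4% of the 9 background genes. Median CpG counts were 24, 21 and 13. Over the 85 genes the CpG count correlated with the mean signal with r = 0.27 and with the SD over the 8 arrays with r = -0.093, across genes that share the same arrays and whose probes differ in base composition.

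**Figure D1:**
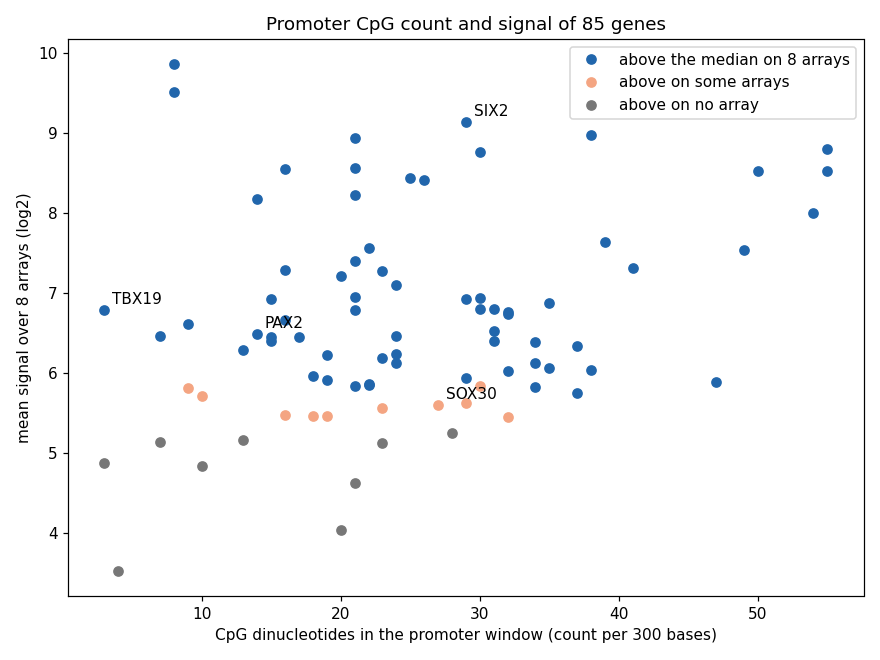
CpG dinucleotides per 300-base promoter window (horizontal axis) against mean log2 signal over 8 arrays (vertical axis) for 85 genes, coloured by whether the gene lay above the array median on 8, some or no arrays. Background genes have a median of 13 CpG and detected genes 24, while TBX19, with 3 CpG, lies among the detected genes.

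The kidney factors came first because HEK293T derives from embryonic kidney. Of the 19 listed, 16 had a named cluster, and 14 of these lay above the median on all 8 arrays. PAX2 stood at 6.51 in shControl, 6.47 in shTET1#1, 6.47 in shTET1#2, 6.47 with the vector, 6.40 in TET1-CD, 6.62 in mTET1-CD, 6.50 in TET1-FL and 6.47 in mTET1-FL, a mean of 6.49 (SD 0.063 over the 8 arrays). It was above the median on every array, and its 8 readings lay within 0.22 of each other. The readings in shTET1#1, shTET1#2, the vector and mTET1-FL were identical, so its SD rests on fewer distinct readings than 8. SIX2, which keeps nephron progenitors in the undifferentiated state, had a mean of 9.14, and SOX4, an HMG-box factor of many progenitors, one of 9.86. TBX18, a factor of the ureteric and stromal mesenchyme, had a mean of 8.56. SOX12 (8.00), SOX9 (7.78), IRX3 (7.77), GATA3 (7.28), WT1 (6.94), EMX2 (6.78), FOXD1 (6.66), LHX1 (6.46), IRX1 (6.04) and IRX2 (5.83) completed the detected genes. PAX8, the close relative of PAX2 that acts with it in the early nephric lineage, stayed between 4.79 and 5.29, and SOX11 between 4.89 and 5.33, both below every array median.

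Among 29 named neural factors, 20 were detected on all 8 arrays and 6 on none. The homeobox genes DLX2 (8.76) and EN2 (8.53), and PAX3 (8.22), a factor of the dorsal neural tube and muscle precursors, were detected throughout, as were the neural progenitor factors SOX2 (7.21) and PAX6 (6.24). The genes never above the median included LHX5, SIX6, OLIG3, SOX3 and the neuronal differentiation factors NEUROD4 and NEUROD6, the last at 3.40 to 3.94. All 11 endoderm factors were detected on all arrays, with means from 5.91 for PAX9 to 8.44 for GATA6. Of the 18 heart, limb and somite factors, 15 were detected, among them TBX20 (8.97), HAND1 (8.94) and TBX3 (8.57), and only TBX5 lay below every median. FOXJ3 (9.51), FOXK2 (8.80), FOXK1 (8.53) and FOXD4 (8.55) were further genes with high signal, and the FOXK and FOXJ3 genes are broadly expressed rather than restricted to 1 lineage. Genes of several germ layers were thus above the median in 1 cell line.

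By family, all 6 GATA, all 6 IRX, 5 of 6 DLX and 11 of 12 NKX genes were detected on every array. The SOX family had 14 of 19, the FOX family 18 of 24, the TBX family 9 of 13 and the LHX family 5 of 8. NEUROD had 0 of 3. The 6 genes with several clusters show how much the reading depends on the probes: the second cluster of NKX2-1 had a mean of 4.56, below the median, where the one used had 7.40. For SOX12 the pair stood at 6.98 and 8.00 and correlated over the 8 arrays with r = 0.65, whereas the FOXD1 pair gave r = -0.46.

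**Figure D2:**
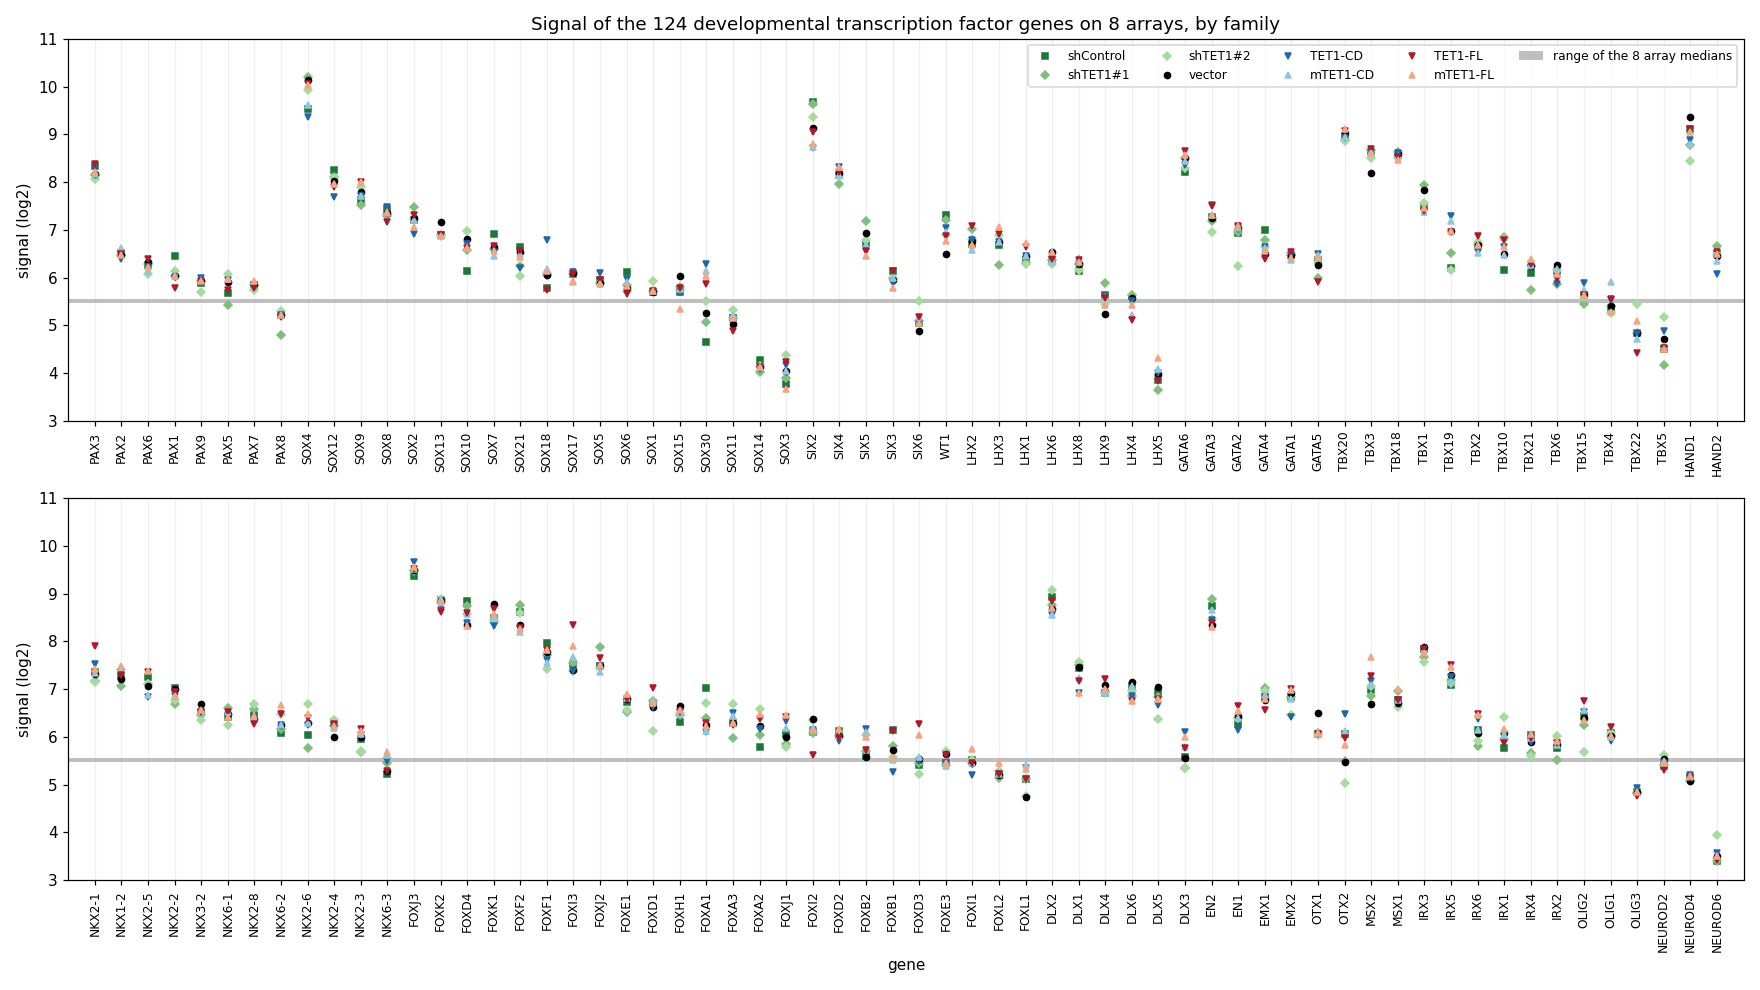
Log2 signal (vertical axis) of all 124 genes (horizontal axis, grouped by family and ordered by mean within it) on each of the 8 arrays (symbols). The grey band is the range of the array medians, 5.47 to 5.55, and most genes sit above it with the 8 symbols close together.

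The line at the median also set which genes could be tested. A cluster entered the fit if at least 2 arrays lay above their median, which kept 28946 clusters and 111 of the 124 genes. The 13 left out were FOXL1, FOXL2, LHX5, NEUROD4, NEUROD6, OLIG3, PAX8, SIX6, SOX3, SOX11, SOX14, TBX5 and TBX22. Their 8 values are in the plot of signal by family, and they take no part in the tests.

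The kept genes varied little from array to array. Their median SD over the 8 arrays was 0.17 on the log2 scale, against 0.22 for all kept clusters and 0.20 for named kept clusters. Their signal was lower as well, with a median of the means of 6.49 against 6.92 and 7.21. Exactly the same value on several arrays occurred for 42.3% of the kept genes and 26.0% of all kept clusters. The part of signal and ties in the smaller SD was not tested. The range over the 8 arrays reached 2-fold in 6 of the 111 genes (5.41%), in 12.6% of named kept clusters and in 22.7% of all kept clusters. Those 6 genes were SOX30 (range 1.65), OTX2 (1.45), TBX19 (1.13), OLIG2 (1.07), FOXD3 (1.04) and SOX18 (1.04), of which SOX30, OTX2 and FOXD3 lay below the median on some arrays. The lowest value of a kept gene fell in shTET1#2 for 28 of the 111 genes, more often than in any other array, and the highest in TET1-FL for 19. These counts were not made over all kept clusters. Of those 28946 clusters, 15601 read lower in shTET1#2 than in shControl and 12903 higher, so low readings there were not particular to these genes.

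Members that neighbour each other on a chromosome gave correlations of both signs. There were 16 pairs of these genes that lie next to each other among all annotated protein-coding genes, 12 with both genes detected. The Pearson correlation over the 8 arrays, which share preparation and normalisation, ranged from -0.82 for NKX2-1 with NKX2-8 to 0.72 for IRX5 with IRX6, with a median of 0.097. SIX2 and SIX3 gave 0.57, and DLX1 and DLX2 0.63. TBX3 (mean 8.57) was detected while its neighbour TBX5 (mean 4.63) was at background. The genes whose 8 values were most like those of PAX2, out of 95 detected genes compared, were SOX21 (r = 0.48), LHX8 (0.45), TBX6 (0.45), SIX3 (0.40) and FOXK2 (0.38), which are weak likenesses over 8 arrays with a PAX2 range of 0.22.

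The comparisons below come from 1 limma fit to all 8 arrays with 2 residual degrees of freedom, and adjusted p-values are Benjamini-Hochberg values over the 28946 clusters with a threshold of 0.05. TET1 itself checks the labels. Its cluster with the higher mean read 9.29 in shControl, 8.62 in shTET1#1 and 9.14 in shTET1#2, so that the second clone is called the array labelled shTET1#2 below. With plasmids it read 10.42 in TET1-CD, 11.05 in mTET1-CD, 12.22 in TET1-FL and 12.47 in mTET1-FL, against 9.51 with the vector. In this cluster each wild-type plasmid thus read below its mutant, and CD below FL. For the other TET1 cluster the control clone read 5.71 and the pair of knockdown clones 5.27 and 6.20, so the second clone was above the control there. It read 5.86 with the vector and 11.80 to 12.10 with the 4 plasmids.

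The first comparison asked whether TET1 shRNA shifts these genes. No gene of the set rose or fell past the threshold. OTX2, a head and forebrain homeobox factor, had the largest negative difference and TBX10 the largest positive one. OTX2 read 6.07 in shControl, 5.50 in shTET1#1 and only 5.03 in the array labelled shTET1#2, against medians of 5.47 to 5.55, so its lower readings lay at or under the line. The fitted difference was -0.80 ± 0.24 (SE; limma adjusted p = 0.580). TBX10, a T-box gene, read 6.16 in shControl and 6.84 and 6.82 in the 2 clones, a difference of 0.67 ± 0.15 (adjusted p = 0.497).

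Others with the same sign in both clones were SOX21 (-0.51), HAND1 (-0.49), FOXA1 (-0.47), OLIG2 (-0.46) and FOXB1 (-0.45) on the lower side. On the higher side were SOX30 (0.65), SOX10 (0.64), SOX4 (0.53), FOXA2 (0.52) and IRX1 (0.43). SOX10, the neural crest factor, read 6.13 in shControl and 6.57 and 6.97 in the clones, and the 5 plasmid and vector arrays read 6.63 to 6.80. With the vector array as the control, FOXA1 (0.29), SOX10 (-0.032) and SOX4 (-0.086) changed sign. OTX2 then differed by -0.20, SOX30 by 0.047, FOXB1 by -0.040, FOXA2 by 0.083, IRX1 by 0.11 and TBX10 by 0.34, all nearer to 0, whereas HAND1 differed by -0.75. SOX21 (-0.40) and OLIG2 (-0.42) moved less. SOX30 lay below the array median in all 3 clones and with the vector. PAX2 differed by -0.041 (95% confidence interval -0.46 to 0.38), an interval that leaves room for a change of over 1.3-fold either way.

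Adjusted calls numbered 0 of 111 genes, as over all clusters (0%). At an unadjusted p under 0.05 there were 6 genes (5.41%), namely TBX10, OTX2, SOX10, IRX4, SOX4 and SOX30, beside 7.93% of all kept clusters. The median difference was -0.025 over the 111 genes and -0.010 over all clusters, with 44 genes higher and 67 lower. The kidney factors had 4 higher and 10 lower of 14, with a median of -0.11, and SOX4 was the one with an unadjusted p under 0.05. The neural factors had 8 higher and 15 lower of 23, the endoderm factors 4 and 7 of 11, and the heart, limb and somite factors 5 and 12 of 17. A 2-fold difference in 1 clone was seen for OTX2 in the array labelled shTET1#2 (-1.04), where 3.28% of all clusters passed 2-fold, and for no gene of the set in shTET1#1, where 1.99% did.

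Of the 6 kidney partners, EYA1 and EYA2 read differently in the control clone from all other arrays. EYA1, the phosphatase that forms a complex with SIX2 and its relatives, read 6.31 in shControl and 7.66 to 8.65 on the other 7 arrays. Its relative EYA2 read 8.08 in shControl and 7.00 to 7.32 elsewhere. The knockdown differences were 1.61 ± 0.25 and -0.76 ± 0.19 (limma adjusted p = 0.424 and 0.536), and of the 6 kidney partners these 2 had an unadjusted p under 0.05. SALL1, another nephron progenitor factor, read 7.77 to 8.08 on all 8 arrays. The differences of HOXD11 (-0.24), MEOX1 (0.098) and OSR1 (-0.042) were smaller, and the median of the 6 was -0.021. Since there was 1 control clone, a difference between clones and an effect of the shRNA cannot be told apart here.

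The second comparison set wild-type against catalytically mutant TET1, which addresses the enzymatic activity. The TET1 signal itself differed by -0.44 ± 0.22 and -0.020 ± 0.32 in its 2 clusters, and its part in the differences below was not tested. Differences were small throughout: all 111 genes lay between -0.28 (FOXI2) and 0.32 (NKX2-1), so 111 of 111 were under 0.5 on the log2 scale. NKX2-1, the thyroid, lung and ventral forebrain factor, read 7.52 in TET1-CD and 7.34 in mTET1-CD, and 7.89 in TET1-FL and 7.43 in mTET1-FL. Its fitted difference was 0.32 ± 0.14 (limma adjusted p = 1). LHX2 (0.31), OTX2 (0.26), GATA3 (0.21), SOX17 (0.19) and PAX3 (0.16) were also positive in both constructs. The second LHX2 cluster had the other sign in CD, with 5.25 in TET1-CD and 5.37 in mTET1-CD. In FL it read 5.76 in TET1-FL and 5.37 in mTET1-FL. FOXI1 (-0.27), NKX6-3 (-0.27), FOXK2 (-0.22), TBX6 (-0.21) and FOXA2 (-0.20) were negative in both, as was FOXI2. FOXI1 and NKX6-3 lay near the array medians, where background limits the reading. They would have failed the filter but for the mutant arrays, where they were high. A lower wild-type value was thus a condition of their being tested, and their differences are given as a description.

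The median over the 111 genes was 0.0002 and over all clusters 0.0027, with 56 genes higher and 55 lower. Neither adjusted calls (0 genes; 0% of all clusters) nor unadjusted p under 0.05 (0 genes; 1.96% of all clusters) picked out a member. PAX2 differed by -0.091, with an interval from -0.43 to 0.25. The half-width of the 95% confidence interval was 0.37 for the median gene, so changes of about 1.3-fold were within the error. No gene of the set was 2-fold apart within CD, where 0.563% of all clusters were, or within FL, where 0.736% were.

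**Figure D3:**
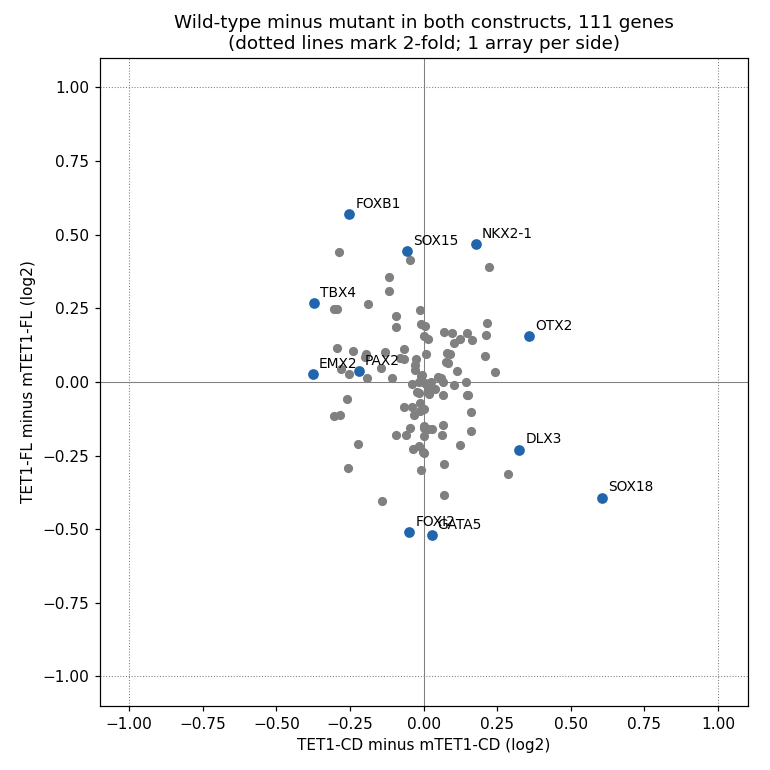
Wild-type minus mutant log2 difference in CD (horizontal axis) and in FL (vertical axis) for 111 genes, 1 array per side, with named genes in blue and dotted lines at 2-fold. All points lie inside the dotted lines, and SOX18 (0.61 in CD, -0.39 in FL) and FOXB1 (-0.25 in CD, 0.57 in FL) lie farthest out with opposite signs.

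The third comparison, the 4 TET1 plasmids together against the empty vector, asked what raised TET1 did whatever its activity. SOX30, an HMG-box factor of male germ cells, read 5.25 with the vector and 6.29 with TET1-CD, 6.13 with mTET1-CD, 5.87 with TET1-FL and 6.03 with mTET1-FL, above the vector in every case. SOX30 entered the fit only through these 4 plasmid arrays, so that a higher value there was a condition of being tested. The difference was 0.83 ± 0.22 (limma adjusted p = 0.236). OTX2 read 5.47 with the vector and 5.83 to 6.48 with the plasmids (0.64 ± 0.22, adjusted p = 0.301). Both vector readings lay below that array's median of 5.52, where background limits the reading, and its effect on these differences was not tested. MSX2, a homeobox target of BMP signalling, read 6.69 and 7.09 to 7.67 (0.61), and TBX3 8.19 and 8.61 to 8.70 (0.45). In the shRNA arrays MSX2 read 6.85 to 7.07 and TBX3 8.51 to 8.67, so the vector reading was the lowest of all for both.

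WT1, the zinc finger factor of nephron progenitors and podocytes, read 6.49 with the vector, 7.04 in TET1-CD, 6.96 in mTET1-CD, 6.87 in TET1-FL and 6.77 in mTET1-FL. It was lowest with the vector, and its shRNA readings of 7.31, 7.22 and 6.90 were higher or within the plasmid range, so the vector array is the one that stands apart for WT1. Its difference was 0.42 ± 0.17 (adjusted p = 0.353). FOXB2 (0.43) was also higher with all 4 plasmids. Lower with all 4 were TBX1 (-0.44), OTX1 (-0.43), HAND1 (-0.40), DLX1 (-0.40), SOX15 (-0.39) and SOX4 (-0.38). OTX1 read 6.49 with the vector and 6.03 to 6.09 on the other 7 arrays, again with the vector apart. The vector reading was also the lowest of all arrays for FOXB2 and the highest for HAND1 and SOX15, but not for TBX1, DLX1 or SOX4. The genes named in this comparison were picked for standing on the same side of the vector with all 4 plasmids. Of the 111 genes, 48 (43.2%) did so, beside 54.4% of all clusters.

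Of the 111 genes, 0 passed the adjusted threshold (0% of all clusters) and 5 (4.50%) had an unadjusted p under 0.05, namely SOX30, OTX1, MSX2, TBX3 and OTX2, beside 15.0% of all clusters. Without the 6 genes that would have failed the filter but for the side where they were high, SOX30 among them, 4 of 105 (3.81%) remained. The median was 0.0098 over the genes and 0.0014 over all clusters, with 62 higher and 49 lower. PAX2 differed by 0.031 (interval -0.35 to 0.41). With TET1-CD, SOX30 (1.04) and OTX2 (1.01) passed 2-fold against the vector, where 3.68% of all clusters did. No gene of the set did with mTET1-CD (3.14% of all clusters), TET1-FL (3.60%) or mTET1-FL (3.03%).

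The fourth comparison set the FL construct against CD. Here the TET1 signal differed by 1.61 ± 0.22 and -0.21 ± 0.32 in its 2 clusters, and its part in the differences below was not tested. FOXD3, a neural crest and pluripotency factor, read 5.49 in TET1-CD, 5.58 in mTET1-CD, 6.27 in TET1-FL and 6.04 in mTET1-FL, a difference of 0.62 ± 0.15 (limma adjusted p = 0.214). FOXI3 (0.60), SOX4 (0.54), NKX2-5 (0.51), FOXB1 (0.46) and EMX2 (0.40) were also higher with both FL plasmids. NKX2-5, the cardiac homeobox factor, read 6.84 and 6.88 in the CD arrays and 7.37 in both FL arrays (0.51 ± 0.12, adjusted p = 0.191). SOX18, a factor of endothelial cells, was lower with FL by both readings (-0.54 ± 0.26, adjusted p = 0.450), but most of this came from the wild-type pair, 6.78 in TET1-CD and 5.74 in TET1-FL, while the mutants read 6.18 and 6.14. OTX2 (-0.39), GATA5 (-0.33), FOXI2 (-0.28), TBX19 (-0.27) and FOXB2 (-0.27) were lower as well. The wild-type pair also carried most of the difference for GATA5 (-0.60 against -0.053 in the mutant pair), FOXI2 (-0.51 against -0.048) and FOXB2 (-0.45 against -0.099). On the higher side the same held for FOXB1 (0.88 against 0.052), FOXI3 (0.97 against 0.24) and EMX2 (0.60 against 0.19).

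None of the genes passed the adjusted threshold (0 of 111; 0% of all clusters), and 4 (3.60%) had an unadjusted p under 0.05: NKX2-5, FOXD3, SOX4 and FOXI3, beside 13.7% of all clusters. More genes stood higher with FL (68) than lower (43), and the median was 0.033 over the genes and 0.0031 over all clusters. Of the FOX genes, 16 of 22 were higher, of the NKX genes 8 of 12, of the TBX genes 6 of 11, of the SOX genes 7 of 16, of the PAX genes 3 of 7 and of the GATA genes 3 of 6. By lineage, 9 of 14 kidney, 16 of 23 neural, 6 of 11 endoderm and 12 of 17 heart, limb and somite factors were higher. Of all clusters, 14683 of 28946 were. The neural factors had 16 higher and 7 lower in the wild-type pair, but 10 and 11 in the mutant pair. For the endoderm factors these were 5 and 6, then 7 and 4. The other lineage lists had more genes higher than lower in both pairs. SOX18 was 2-fold lower in TET1-FL than in TET1-CD (-1.04; 3.28% of all clusters passed 2-fold), and no gene of the set was 2-fold apart between the mutants (2.47%). PAX2 differed by -0.025 (interval -0.37 to 0.32).

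The last comparison set the 5 plasmid and vector arrays against the 3 shRNA clone arrays. It joins transient transfection, sorting and time with lentiviral delivery and cloning. TET1 differs along with them, since every plasmid-side array but the vector had a TET1 plasmid and every clone but shControl had TET1 shRNA. TET1 itself was higher in the plasmid and vector arrays, by 2.11 and 5.01 in its 2 clusters. None of these factors can be told apart. Here TBX19 was higher in the plasmid and vector arrays and SIX2 was lower. These were 2 of the 103 genes (1.94%) that did not owe their place in the fit to the side where they were high, beside 5.41% of all kept clusters. The share is below the background of all clusters. SOX30 also had an adjusted p under the threshold, but it was 1 of the 8 genes that entered through the side where they were high. A higher value there was a condition of being tested, and its difference is given as a description.

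TBX19, the T-box factor of pituitary corticotrophs, read 6.21, 6.52 and 6.16 in shControl, shTET1#1 and the array labelled shTET1#2. The vector array read 6.97, TET1-CD 7.29, its mutant 7.19, TET1-FL 6.96 and its mutant 6.97. The groups did not overlap, and the lowest plasmid-group reading exceeded the highest shRNA reading. The difference was 0.78 ± 0.12 (limma adjusted p = 0.0419), which is 1.72-fold.

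SIX2 read 9.67, 9.63 and 9.36 in the shRNA arrays and 9.13, 8.72, 8.74, 9.04 and 8.80 in the plasmid and vector arrays, in the same order. These groups did not overlap either, and the vector array lay closest to the shRNA arrays. The difference was -0.67 ± 0.11 (limma adjusted p = 0.0464), or 1.59-fold lower. Its promoter, shown above, had 29 CpG where that of TBX19 had 3, and a link of CpG count to these differences was not tested.

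SOX30 read 4.65, 5.07 and 5.52 in the shRNA arrays and 5.25 with the vector, then 5.87 to 6.29 with TET1 plasmids. The vector reading lay within the shRNA range, and all 4 of these lay below their array medians. It entered the fit through the TET1 plasmid arrays alone, was not tested with a filter of all 8 arrays above the median, and its difference of 0.83 ± 0.15 (limma adjusted p = 0.0475) is not separate from the comparison of plasmids with the vector.

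All 3 adjusted values depended on the control clone. Without the shControl array the differences were 0.74 for TBX19, -0.61 for SIX2 and 0.62 for SOX30, and the limma adjusted p rose to 0.0763, 0.0900 and 0.126. Without a filter on low signal they were also lost (adjusted p = 0.0867, 0.0946 and 0.0950). The directions were the same in every alternative tried for these 3 genes.

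**Figure D4:**
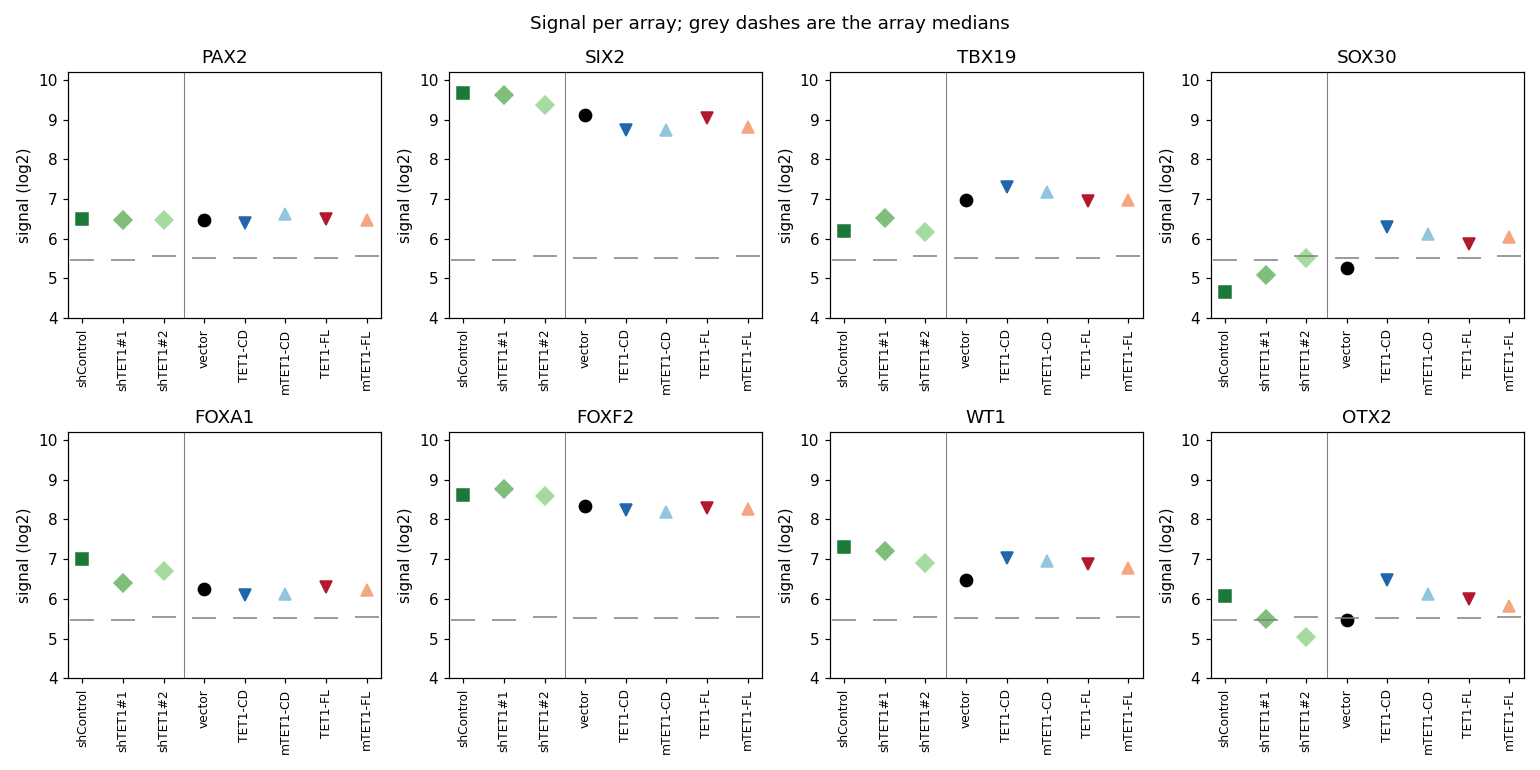
Log2 signal (vertical axis) of 8 genes on each array (horizontal axis), with grey dashes at the array medians and a vertical line between the 3 shRNA arrays and the 5 plasmid and vector arrays. PAX2 is flat at 6.40 to 6.62, SIX2 is higher and TBX19 lower in the shRNA arrays, and SOX30 and OTX2 cross the median.

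Further genes without overlap between the groups did not pass the threshold. FOXA1, the pioneer factor of endoderm, read 7.02, 6.40 and 6.70 in the shRNA arrays and 6.10 to 6.29 in the others (-0.50 ± 0.11, limma adjusted p = 0.0705). With only the clusters above the median on all 8 arrays, FOXA1 passed (limma adjusted p = 0.0489), beside TBX19 (0.0275) and SIX2 (0.0304). FOXF2, a factor of gut and craniofacial mesenchyme, read 8.60 to 8.77 and 8.20 to 8.35 (-0.40 ± 0.095, adjusted p = 0.0798). SOX12 (-0.24) and NKX2-8 (-0.19) were lower too. The second SOX12 cluster read 6.94 to 7.06 in the shRNA arrays and 6.70 to 7.14 in the others, so its groups overlapped. GATA2 (0.35), NKX2-3 (0.29), LHX1 (0.23) and FOXE1 (0.21) were higher in the plasmid and vector arrays. FOXD3 (0.42) read 5.22 to 5.44 in the shRNA arrays, below their medians, and entered the fit through the plasmid and vector arrays alone. GATA2, a factor of blood progenitors, read 6.24 in the array labelled shTET1#2 against 6.93 to 7.08 on all others, and without that array its difference was 0.11. In all, 11 of the 111 genes had groups that did not overlap, 6 higher and 5 lower and FOXD3 among them, beside 15.9% of all clusters.

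At an unadjusted p under 0.05 there were 16 genes (14.4%), 10 higher and 6 lower, beside 26.6% of all clusters. Without the 8 genes that entered through the side where they were high there were 13 of 103 (12.6%). The median difference was 0.058 over the genes and 0.014 over all clusters, with 65 higher and 46 lower. By lineage the unadjusted count was 3 of 14 for kidney (SIX2, WT1 and LHX1), 2 of 23 for neural, 3 of 11 for endoderm and 2 of 17 for heart, limb and somite factors. PAX2 differed by 0.011 (interval -0.24 to 0.26), its narrowest interval. Between the vector and shControl arrays alone no gene of the set was 2-fold apart, and 4.54% of all clusters were.

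**Figure D5:**
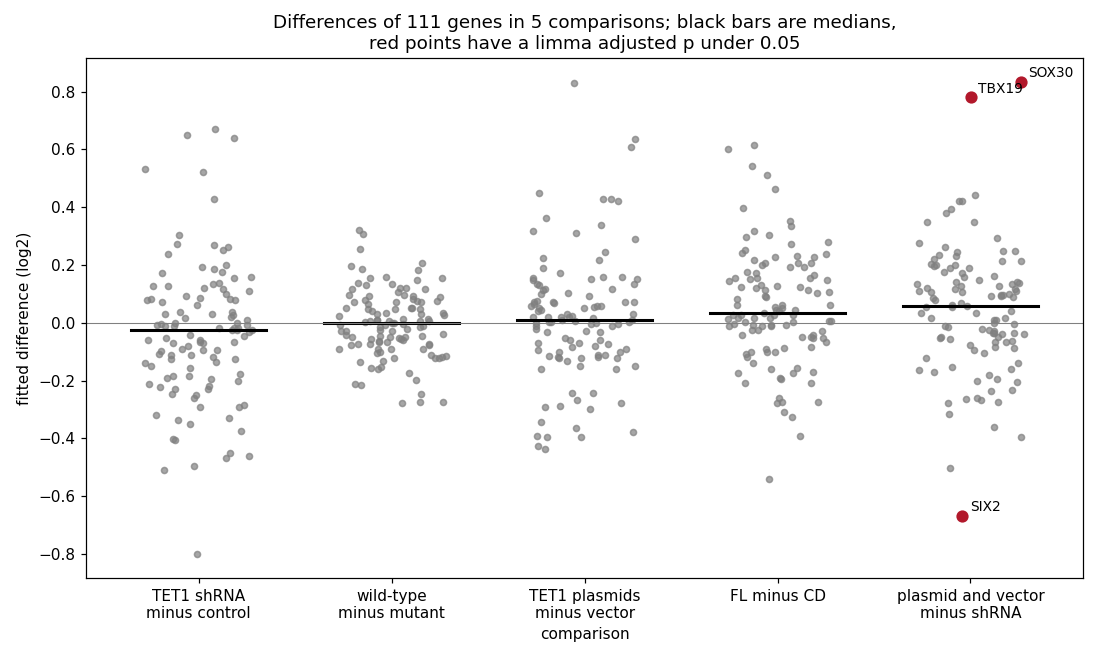
Fitted log2 differences (vertical axis) of 111 genes (points, spread sideways for legibility) in 5 comparisons (horizontal axis), with black bars at the medians and red points for a limma adjusted p under 0.05. Differences between wild-type and mutant span -0.28 to 0.32, and red points appear only for TBX19, SOX30 and SIX2 in the comparison of plasmid and vector with shRNA arrays.

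Genes of the machinery that writes and removes the bivalent marks were well detected. All 23 named Polycomb genes and all 11 named genes of the H3K4 methyltransferase list lay above the median on all 8 arrays. None passed the threshold for knockdown, wild-type against mutant, plasmids against vector, or FL against CD. With an unadjusted p under 0.05 the Polycomb counts in those 4 comparisons were 0, 0, 4 and 1 of 23, and those of the H3K4 list 1, 0, 2 and 0 of 11, beside 7.93%, 1.96%, 15.0% and 13.7% of all clusters. In the comparison of plasmids with the vector these were 17.4% and 18.2%, close to the share of all clusters. RYBP, a subunit of PRC1, read 8.42 with the vector and 9.05 to 9.38 with TET1 plasmids (0.79 ± 0.15). EZH1, a catalytic subunit of PRC2, read 9.97 and 9.19 to 9.39 (-0.69 ± 0.14). In shControl, shTET1#1 and the array labelled shTET1#2, RYBP read 8.91, 9.07 and 8.87, and EZH1 9.10, 9.39 and 9.47. The vector array is thus the one that stands apart for both.

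Between plasmid and vector arrays and shRNA arrays, 1 of 23 Polycomb genes (4.35%) and 1 of 11 genes of the H3K4 list (9.09%) passed, beside 5.41% of all clusters. PCGF3, a PRC1 subunit, read 8.20 to 8.47 in the shRNA arrays and 7.47 to 7.96 in the others (-0.59 ± 0.093, limma adjusted p = 0.0423). KDM6B, an H3K27 demethylase that acts beside the H3K4 methyltransferases, read 7.08 to 7.59 and 7.76 to 8.19 (0.66 ± 0.097, adjusted p = 0.0380). EYA1 passed as well (1.02 ± 0.15, adjusted p = 0.0390), though its shRNA readings of 6.31, 8.19 and 7.66 overlapped the others at 8.15 to 8.65, with shControl the lowest of all.

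Markers of other cell types were measured to the extent they were named. The 2 named fibroblast markers (DCN and LUM), the 2 keratinocyte markers (KRT5 and KRT14) and the pluripotency genes NANOG and LIN28A lay below the median on all 8 arrays. POU5F1 lay above it on 7 arrays, with readings of 5.47 to 6.19. The 1 named blood marker, CD68, read 6.19 to 7.77 on all 8 arrays, highest in TET1-FL and lowest in the array labelled shTET1#2. These values were measured beside the gene set, and their part in its differences was not tested.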

How the data were processed

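RNA of 8 HEK293T samples was measured on 8 Affymetrix arrays, 1 per sample, from 100 ng of total RNA per the labels. The deposited values are log2 signals made with Affymetrix Expression Console 1.3.1 and RMA, per the submitters' processing notes, which give no roles. The build is not given in the sources used here. RMA normalises between arrays, so a shift shared by all genes would be removed. Exact ties between arrays occurred for 56 of the 124 genes (45.2%), beside 36.2% of all clusters. Gene names came from the platform annotation.

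Clusters above their array's median on at least 2 of 8 arrays were kept. One limma 3.58.1 model (R 4.3.3, lmFit and eBayes) was fitted to all arrays, with 2 residual degrees of freedom, a prior of 2.89 and a prior SD of 0.154. The residual holds how far the TET1 shRNA clones differ and the degree to which wild-type minus mutant differs between CD and FL. The fit was tested on simulated data.

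Named genes were PAX2, TET1, the 12 with the highest mean, the 6 highest and 6 lowest per comparison (one sign in all readings), the 3 highest and 3 lowest per pair of arrays, the 2 largest changes per list, and the 5 most like PAX2. Genes with an unadjusted p under 0.05, and those of the lists of markers and levels, were named after their values were seen. Promoters with CpG counts came from RefSeq. Members and lists were chosen with earlier results of these data known. Alternatives covered the filter, normalisation, prior, choice of cluster, control and left-out arrays. The number of arrays limits the precision.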

Additional observations from a re-analysis of the deposited data

Results flagged for a closer look

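Wild-type minus mutant had the same sign in CD and FL for 46 of the 111 genes (41.4%), beside 47.9% of all clusters. PAX2 and the 3 highest and 3 lowest genes per pair of arrays were examined, so the list was picked on these same values. For 8 of those genes the difference between wild-type and mutant TET1 had opposite signs in CD and FL. The test of that difference was an interaction term in limma with 1 residual degree of freedom, which called 0 of 28946 clusters (243 at an unadjusted p under 0.05) and had 1 of the 111 genes at an unadjusted p under 0.05. That gene was SOX18, at 0.61 in CD and -0.39 in FL, which differ by 0.998 (limma adjusted p = 1). For FOXB1 (-0.25 and 0.57) the CD difference minus the FL difference was -0.82, and for TBX4 (-0.37 and 0.27) it was -0.64. DLX3 gave 0.55, GATA5 0.55, SOX15 -0.50, EMX2 -0.40 and PAX2 -0.26. All of these had an adjusted p of 1, and each reading rests on 1 array per side.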

How the results depend on the processing

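Of 52 counts recomputed under the alternatives, 47 stayed within 1.5 times the reported one, and all 49 medians moved by less than the residual SD of the median gene. Counts of called genes in the first 4 comparisons were 0 in the report and in every alternative. Few or no clusters of any kind were called there, so these counts could hardly move. The 5 counts outside the range were all for the last comparison or for detected genes. Of 623 single-gene values, 612 stayed on their side of the threshold, 7 of them with the sign turned, and 11 crossed it. The count of genes past the threshold between plasmid and vector arrays and shRNA arrays, 3 with SOX30, was 6 with 1 named cluster per symbol (FOXA1, FOXF2 and FOXJ1 joined), 0 without a filter, and 0 without the control shRNA array, an alternative chosen after seeing the data. It was 4 without either TET1 shRNA clone. Over all clusters the calls there were 1566 in the report, 135 without a filter, 448 without the control shRNA array, 2550 with a prior that depends on mean level, and 2751 or 2858 without a TET1 shRNA clone. Detected genes numbered 41 with a line 1 log2 unit above the median and 25 with the 75th percentile, against 96.

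The sign turned for PAX2 between wild-type and mutant without the CD arrays (0.038), between FL and CD without the mutant arrays (0.10), and between plasmid and vector arrays and shRNA arrays with cyclic loess (-0.0092) or centring (-0.015). With the vector as control for the TET1 shRNA arrays it turned for FOXA1 (0.29), SOX10 (-0.032) and SOX4 (-0.086). The cause was not tested. Centring each array on its median gave 60 genes higher with FL and 51 lower, and 61 and 50 for plasmid and vector against shRNA. No paired analysis was possible because the groups compared share replicate number 1 alone, each group other than TET1 shRNA having 1 array. Readings near the array median limit 15 genes.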
